A study of Homo sapiens with 10 samples.

Results

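The 36 genes described here are glycolytic enzymes and genes known to respond to the hypoxia-inducible factors (HIFs), measured by RNA sequencing in prostate cancer cells with altered CPT1A, the carnitine palmitoyltransferase that admits long-chain fatty acids to the mitochondria for oxidation. They were chosen by name, as established members of both pathways, with earlier results of these data known. All 36 were found among the 57353 gene symbols of the count table. By role, 2 serve glucose uptake or lactate export, 16 are glycolytic enzymes, 3 regulate glycolytic flux, 11 are other HIF targets, 2 are HIF subunits and 2 are HIF prolyl hydroxylases. Counts were compared in 10 samples of LNCaP-C4-2, a castration-resistant line derived from the LNCaP human prostate cancer line. Knockdown cells (KD, 3 samples) carried 1 shRNA against CPT1A from a lentivirus, and their control (NT, 2 samples) carried a scrambled, non-targeting shRNA, both under puromycin at 1 ug/ml. Over-expressing cells (OE, 3 samples) carried CPT1A cDNA from a lentivirus, and their control (EV, 2 samples) carried the empty vector, both under blasticidin at 5 ug/ml. All were grown in RPMI with serum and pyruvate to near confluency, and the labels name no low-oxygen treatment. The paper's methods also name amino acids and insulin as supplements of the medium. A single transduced line of each kind is described, and nothing says that its samples came from separate transductions, so the p-values measure only the spread between these samples.

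Glycolysis turns glucose into pyruvate in the cytosol, with a small yield of ATP, and lactate dehydrogenase then reduces pyruvate to lactate, which leaves the cell on monocarboxylate transporters. HIF is a dimer of an oxygen-regulated alpha subunit, such as the product of HIF1A, and the constant subunit ARNT. In well-oxygenated cells the prolyl hydroxylases mark the alpha subunit for destruction, and when it escapes, the dimer binds the core motifs ACGTG or GCGTG and induces most glycolytic enzymes together with genes of angiogenesis, mitophagy and collagen synthesis. HIF activity is set largely at the protein level, which was not measured here. Fatty acid oxidation and glycolysis compete as sources of mitochondrial fuel, and prostate cancer cells of the LNCaP family are known for strong use of lipids.

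Sample depth was 23555205 to 28615770 counts, and levels are given as CPM, counts scaled to a common library size with TMM factors. CPT1A, the targeted gene, had 266 and 262 CPM in NT, 81.2, 86.4 and 86.2 in KD, 326 and 318 in EV and 869.8, 914 and 861 in OE. The level in each modified line lay on the side of its control that the label names, and CPT1A was also higher in EV than in NT (log2 fold change 0.29, edgeR, adjusted p = 9.8e-05). The members took 0.929% to 0.935% of the counts in NT, 1.07% to 1.11% in KD, 0.944% to 0.966% in EV and 1.18% in each OE sample. Mitochondrially encoded genes took 10.4% to 11.5% of the counts in KD and 12.5% to 13.6% in the other lines. Genes of ribosomal proteins took 9.04% to 9.06% in NT and 6.07% to 7.45% in the other lines. All 8 prostate luminal markers were detected, and their summed level was 5804 to 6092 CPM in NT, 7954 to 8767 in KD, 7734 to 8126 in EV and 11082 to 11534 in OE. KLK3 was the largest part of this sum, with a mean of 2466 in NT and 5811 in OE. The markers did not all move alike. In OE against EV 6 had positive and 2 negative log2 fold changes (TMPRSS2 and FOLH1), and in KD against NT 7 and 1 (FOLH1, -0.55). Of 6 markers of other cell types, KRT5 and PECAM1 were at 0 in every sample, TP63, CHGA and PTPRC had at most 1 count in a sample, and COL1A1 made up nearly all of the summed level of 9.24 to 10.4 CPM in NT, 14.6 to 15.7 in KD, 8.46 to 9.70 in EV and 10.9 to 12.8 in OE. The part of these shifts in the results below was not tested.

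The quasi-likelihood test of edgeR was run over the 17230 genes that passed the filter on low counts, with Benjamini-Hochberg adjustment, and a gene was called when its adjusted p was under 0.0001. In these bulk samples a lower count cannot tell fewer cells of a kind from less RNA per cell. OE was set against EV and KD against NT, and the interaction subtracts the second log2 fold change from the first. Of the 36 members, 34 passed the filter. CA9, a membrane carbonic anhydrase widely used as a hypoxia marker, had 1 to 9 counts in a sample, and ADM, the vasodilator peptide adrenomedullin, had 4 to 12, so neither was tested. In OE against EV, 17 members rose and 3 fell, where 11.6% of all tested genes were called higher and 10.3% lower. In KD against NT, 14 rose and 6 fell, where 16.4% of all tested genes were called higher and 12.8% lower. The median log2 fold change of the tested members was 0.33 in OE against EV and 0.16 in KD against NT, beside -0.02 over all tested genes in each. Without EV 2 the numbers in OE against EV were 11 and 1, where 5.16% of all tested genes were called higher and 4.57% lower in that fit, and without EV 1 they were 14 and 1, where the shares were 6.44% and 5.1%. Called members were more frequent than called genes overall in each arm, mostly on the higher side. This excess is a description and was not tested, since the members were chosen with earlier results known. The background was not matched for expression level, on which the power to call a change depends. Average log2 CPM of the tested members ranged from 2.30 (LDHB) to 11.44 (GAPDH). The same 11 members rose in both arms, 5 rose in OE against EV without a call in KD against NT, and 3 rose in KD against NT without a call in OE against EV. VEGFA was called in both arms in opposite directions, MXI1 fell in both, and 7 members had no call in either. The share of all tested genes called in both arms was not counted. Whether this overlap is particular to the members was therefore not tested.

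**Figure D1:**
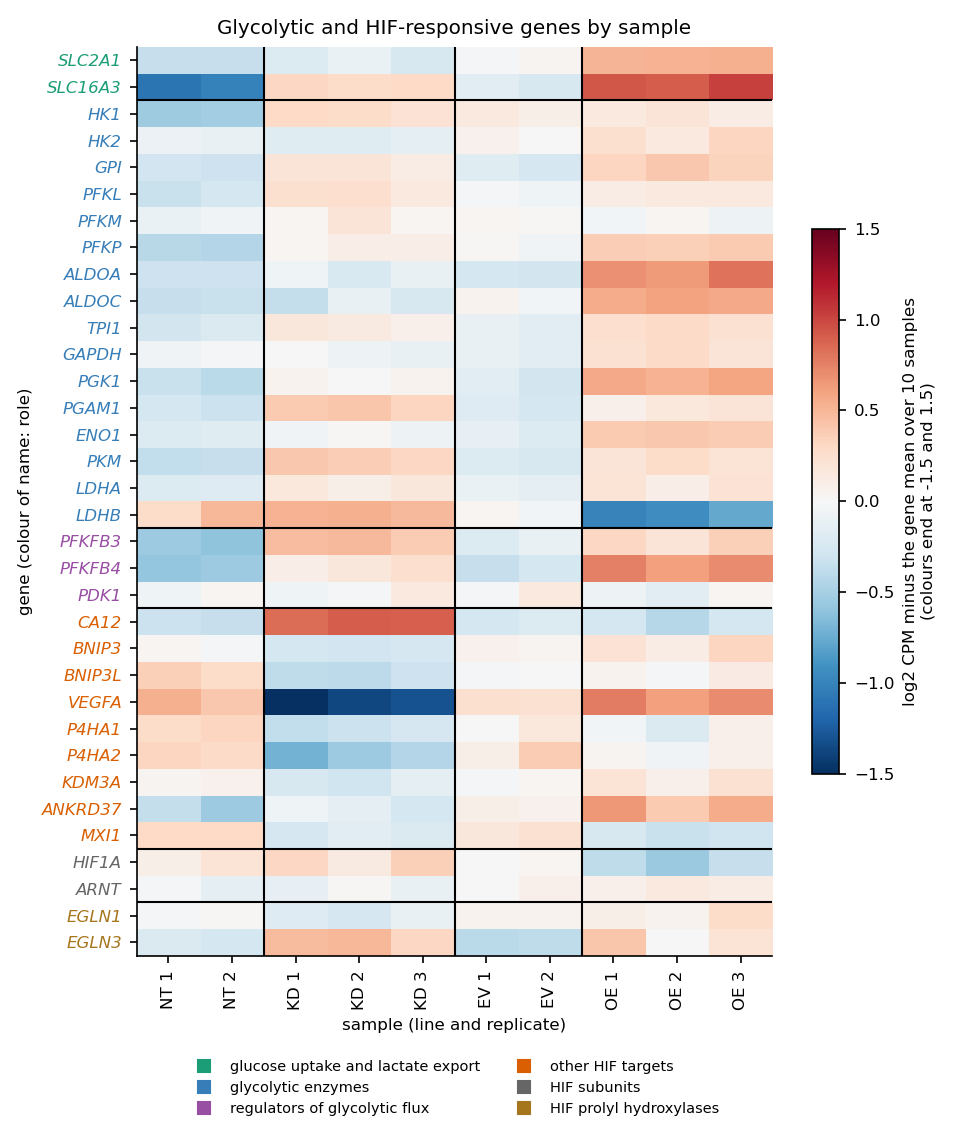
Each cell shows 1 of the 34 tested genes (rows, grouped by role) in 1 of the 10 samples (columns, grouped by line). The value is log2 CPM minus the average of the gene's line means, with colours ending at -1.5 and 1.5. The colour scale labels that average the gene mean over 10 samples. By their mean CPM 8 of the 16 glycolytic enzymes (GPI, PFKP, ALDOA, ALDOC, TPI1, PGK1, ENO1 and LDHA) are lowest in NT and highest in OE and 5 (HK1, PFKL, PFKM, PGAM1 and PKM) lowest in NT and highest in KD, whereas VEGFA, P4HA1, P4HA2, BNIP3 and BNIP3L are lowest in the 3 KD samples.

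To show the letters that lie upstream, the 250 bases before a transcription start of 4 members that results below turn on are printed here, 5′ to 3′ on the strand of the gene, from RefSeq on GRCh38.p14. LDHA and PGK1 are among the enzymes that rose in both arms, and BNIP3 and P4HA1 among the other HIF targets that fell in KD. They were picked after their values were seen, each window holds a match, and they do not stand for their groups. The windows of PGAM1 and PKM, which also rose in both arms, and of P4HA2, which fell in KD, held no match to either core marked here. Capitals mark the cores ACGTG and GCGTG, read on both strands, so that CACGT and CACGC are the same cores on the other strand and CACGTG holds ACGTG on each strand.
LDHA (chr11:18394313-18394562, plus strand): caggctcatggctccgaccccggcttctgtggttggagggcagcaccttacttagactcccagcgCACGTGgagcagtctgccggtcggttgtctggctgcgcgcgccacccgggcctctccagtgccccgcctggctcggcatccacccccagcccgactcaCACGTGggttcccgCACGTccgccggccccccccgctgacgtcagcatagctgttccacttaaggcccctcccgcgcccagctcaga
PGK1 (chrX:78103998-78104247, plus strand): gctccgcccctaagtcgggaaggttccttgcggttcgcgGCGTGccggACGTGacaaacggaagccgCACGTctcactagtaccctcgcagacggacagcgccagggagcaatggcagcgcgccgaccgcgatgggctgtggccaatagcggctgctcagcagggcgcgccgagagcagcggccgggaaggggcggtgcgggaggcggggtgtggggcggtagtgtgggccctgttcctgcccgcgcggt
BNIP3 (chr10:131981924-131982173, minus strand): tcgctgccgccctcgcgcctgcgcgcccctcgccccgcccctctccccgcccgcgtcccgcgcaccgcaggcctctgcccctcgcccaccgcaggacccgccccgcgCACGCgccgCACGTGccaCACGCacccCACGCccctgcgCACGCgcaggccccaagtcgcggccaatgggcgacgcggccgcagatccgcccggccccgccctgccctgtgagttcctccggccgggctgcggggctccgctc
P4HA1 (chr10:73096867-73097116, minus strand): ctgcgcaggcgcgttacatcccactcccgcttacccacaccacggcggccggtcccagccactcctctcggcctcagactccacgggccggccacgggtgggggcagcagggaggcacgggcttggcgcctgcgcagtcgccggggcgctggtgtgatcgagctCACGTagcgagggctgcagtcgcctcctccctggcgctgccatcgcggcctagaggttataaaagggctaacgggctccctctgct
The printed LDHA window held 5 matches to ACGTG and none to GCGTG, whereas the other LDHA window in the table (chr11:18396101-18396350) held 0 and 1. The PGK1 window held 2 and 1, the BNIP3 window 2 and 4 and the P4HA1 window 1 and 0. In LDHA 2 of the matches overlap as CACGTG at each of 2 places, and in BNIP3 both do at 1 place. The promoter table matched 34 of the 36 members and held no entry for VEGFA and BNIP3L. Over windows that reach from 250 bases before to 50 after the start, 23 of the 64 windows of the 34 members (35.9%) held ACGTG. The core was in 21.4% of all 35116 promoters in the table and 25.4% of the 15772 windows of tested genes. Some genes, such as HK1 and PFKM, have several windows and so weigh more in these shares. Counted by gene, 19 of the 34 members (55.9%) had ACGTG in any window, against 32.2% of 10894 tested genes. More windows give a gene more places for a match. GCGTG was in 42.2% of the members' windows, against 36.5% of all windows and 47.9% of those of tested genes. By role, ACGTG was in 14 of 36 windows of glycolytic enzymes (38.9%) and in 5 of 12 windows of other HIF targets (41.7%). Members that rose and members that fell in KD thus both had windows with the core and windows without it, and a match is a description of the letters and not of binding.

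Glucose enters most cancer cells through GLUT1, the product of SLC2A1. SLC2A1 had 52.9 and 52.6 CPM in NT, 58.1, 62.4 and 56.6 in KD, 65.9 and 69.1 in EV and 95.9, 96.5 and 97.0 in OE. The OE samples stood above all others without overlap, and SLC2A1 rose 1.43-fold in OE against EV (log2 fold change 0.51 ± 0.053 SE, adjusted p = 2.61e-08), while its value in KD against NT was 0.16 ± 0.055 (adjusted p = 0.0146). Its interaction of 0.35 ± 0.076 was not called (adjusted p = 0.000522). SLC16A3 (chromosome 17, 82217934 to 82261129, plus strand, GRCh38) encodes MCT4, the transporter typical of lactate export, and had 29.7 and 31.5 CPM in NT, 78.9, 77.4 and 78.2 in KD, 57.2 and 53.9 in EV and 121, 120 and 130.3 in OE. The 4 lines did not overlap, with NT lowest, then EV, KD and OE. SLC16A3 had the largest rise of any member in both arms, 2.23-fold in OE against EV (log2 fold change 1.16 ± 0.055, adjusted p = 3.95e-14) and 2.55-fold in KD against NT (1.35 ± 0.059, adjusted p = 2.05e-15). The interaction of SLC16A3 was -0.20 ± 0.079 and not called (adjusted p = 0.0481).

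Of the 16 glycolytic enzymes, 11 rose and 1 fell in OE against EV, at a median of 0.38 on the log2 scale. There 11.6% of all tested genes were called higher and 10.3% lower. In KD against NT 9 enzymes rose and 0 fell, with a median of 0.36, where 16.4% of all tested genes were called higher and 12.8% lower. The median over all tested genes was -0.02 in each arm. The 7 that rose in both arms were GPI, PFKP, TPI1, PGK1, PGAM1, PKM and LDHA. The share of all tested genes that rose in both arms was not counted, so whether this overlap is particular to the enzymes was not tested. Among the first steps, HK1 (chromosome 10, 69269984 to 69401884, plus strand), the hexokinase of most tissues, had 114 and 115 CPM in NT, 205, 201 and 193 in KD, 183 and 176 in EV and 184, 189 and 178 in OE. NT stood apart below the other 3 lines, and EV and OE overlapped. HK1 rose 1.74-fold in KD against NT (0.80 ± 0.048, adjusted p = 7.81e-13), whereas its value in OE against EV was 0.03 ± 0.047 (adjusted p = 0.584). HK2, the inducible hexokinase and a classical HIF target, ranged from 81.0 to 115 CPM over all samples and was not called in either arm (0.21 ± 0.052 in OE against EV, -0.07 ± 0.052 in KD against NT). GPI, which converts glucose 6-phosphate to fructose 6-phosphate, had 561 and 552 CPM in NT, 779, 779.7 and 736 in KD, 601 and 573 in EV and 855, 903 and 864 in OE. All samples of each modified line stood above those of its control, and GPI rose 1.49-fold in OE against EV (adjusted p = 7.16e-10) and 1.37-fold in KD against NT (adjusted p = 9.63e-09).

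The 3 phosphofructokinase genes, whose products catalyse the committed step, differed from each other. PFKL, the liver form, had 121 and 127 CPM in NT, 180.4, 181 and 168 in KD, 149 and 146 in EV and 165, 169 and 168 in OE. PFKP, the platelet form, had 81.5 and 80.5 CPM in NT, 111, 116 and 117 in KD, 110 and 105 in EV and 140.5, 139.8 and 142 in OE. For both genes NT was lowest, OE and KD overlapped for PFKL, and OE stood above all others for PFKP. PFKL rose 1.43-fold in KD against NT (0.51 ± 0.048, adjusted p = 2.55e-09) and was not called in OE against EV (0.18 ± 0.048, adjusted p = 0.0029). PFKP rose 1.31-fold in OE against EV (0.39 ± 0.048, adjusted p = 3.01e-07) and 1.42-fold in KD against NT (0.50 ± 0.049, adjusted p = 4.24e-09). PFKM, the muscle form, ranged from 211 to 261 CPM and was not called in either arm. Without EV 2 the OE against EV call of PFKP was lost (adjusted p = 0.000115).

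Aldolase splits fructose 1,6-bisphosphate, and ALDOA, its form in most tissues, had 40.0 and 39.8 CPM in NT, 47.5, 42.2 and 45.7 in KD, 41.3 and 41.0 in EV and 79.8, 76.9 and 87.2 in OE. ALDOC, the form known from brain, had 66.3 and 66.5 CPM in NT, 65.7, 78.0 and 71.0 in KD, 86.9 and 81.4 in EV and 123, 127 and 124 in OE. In both genes the OE samples stood far above the rest, and KD and NT overlapped for ALDOC. ALDOA rose 1.98-fold in OE against EV (0.98 ± 0.064, adjusted p = 1.47e-11) and ALDOC 1.48-fold (0.57 ± 0.059, adjusted p = 2.53e-08), and neither was called in KD against NT (0.18 ± 0.065 and 0.11 ± 0.060). Of the exon bases of ALDOA in GENCODE v44, 42.8% also belong to another protein-coding gene on the same strand, and how reads over both were counted is not stated, so the level of ALDOA is uncertain. The later steps followed in part. TPI1, which interconverts the triose phosphates, rose 1.31-fold in OE against EV (adjusted p = 1.73e-07) and 1.30-fold in KD against NT (adjusted p = 1.62e-07). GAPDH, the triose phosphate dehydrogenase often taken as a constant reference gene, had 2628 and 2659 CPM in NT, 2715, 2590 and 2526 in KD, 2525 and 2427 in EV and 3193, 3312 and 3113 in OE. The OE samples were the highest and the other 3 lines lay close together, with a rise of 1.29-fold in OE against EV (0.37 ± 0.049, adjusted p = 8.21e-07) that was lost without EV 2 (adjusted p = 0.000257), and a value of -0.02 ± 0.048 in KD against NT that was not called.

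PGK1, which makes the first ATP of the pathway, had 408 and 390.3 CPM in NT, 535, 512 and 533 in KD, 456 and 427 in EV and 765, 737 and 773 in OE. The lines did not overlap, and PGK1 rose 1.72-fold in OE against EV (0.78 ± 0.048, adjusted p = 4.8e-12) and 1.32-fold in KD against NT (0.40 ± 0.047, adjusted p = 1.05e-07). PGAM1, a phosphoglycerate mutase, had 71.3 and 68.3 CPM in NT, 112, 114 and 107 in KD, 74.7 and 71.4 in EV and 90.1, 95.2 and 97.9 in OE. Here KD stood above OE, with a rise of 1.59-fold in KD against NT (adjusted p = 1.2e-10) and of 1.29-fold in OE against EV (adjusted p = 3.32e-06), of which the latter was lost without EV 2 (adjusted p = 0.000597) and on library sizes only (0.000118). ENO1, the enolase of most tissues, had 1251 and 1270 CPM in NT, 1393, 1457 and 1365 in KD, 1325 and 1255 in EV and 1897, 1916 and 1875 in OE. OE stood above all other samples, and ENO1 rose 1.47-fold in OE against EV (adjusted p = 1.12e-09) without a call in KD against NT (0.16 ± 0.046, adjusted p = 0.00553). PKM, the gene of the pyruvate kinases of muscle and of most tumours, had 918 and 934 CPM in NT, 1579, 1540 and 1473 in KD, 1035 and 1008 in EV and 1356, 1441 and 1376 in OE. As for PGAM1, KD was the highest line, and PKM rose 1.65-fold in KD against NT (adjusted p = 3.74e-12) and 1.36-fold in OE against EV (adjusted p = 3.74e-08).

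LDHA, the lactate dehydrogenase subunit that favours lactate formation, had 593 and 594 CPM in NT, 761, 725 and 767 in KD, 636 and 622 in EV and 784, 728 and 793 in OE. Both modified lines stood above both controls and overlapped with each other. LDHA rose 1.22-fold in OE against EV (0.29 ± 0.048, adjusted p = 1.91e-05) and 1.27-fold in KD against NT (0.34 ± 0.048, adjusted p = 1.43e-06). LDHB (chromosome 12, 21635342 to 21757857, minus strand), the subunit of the heart-type enzyme, was low, with 5.55 and 6.47 CPM in NT, 6.59, 6.63 and 6.43 in KD, 4.64 and 4.42 in EV and 2.23, 2.35 and 2.63 in OE. It was the only glycolytic enzyme that fell in a comparison of a modified line with its control, 1.88-fold lower in OE than in EV (-0.91 ± 0.15, adjusted p = 1.88e-05), on 52 to 68 counts per OE sample and 109 to 119 per EV sample. The OE against EV calls of these genes did not hold in every fit that left out 1 sample. That of LDHA was lost without EV 1, EV 2, OE 1 or OE 3 (adjusted p = 0.000218 to 0.00173) and on library sizes only (0.00232), that of LDHB without EV 1, EV 2, OE 1 or OE 2 (0.000116 to 0.000894), and that of LDHA in KD against NT without either NT sample (0.000123 to 0.000147). Of the exon bases of LDHB, 33.4% are shared with another protein-coding gene on the same strand, and pseudogene entries named after it held up to 2.72% of its counts.

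**Figure D2:**
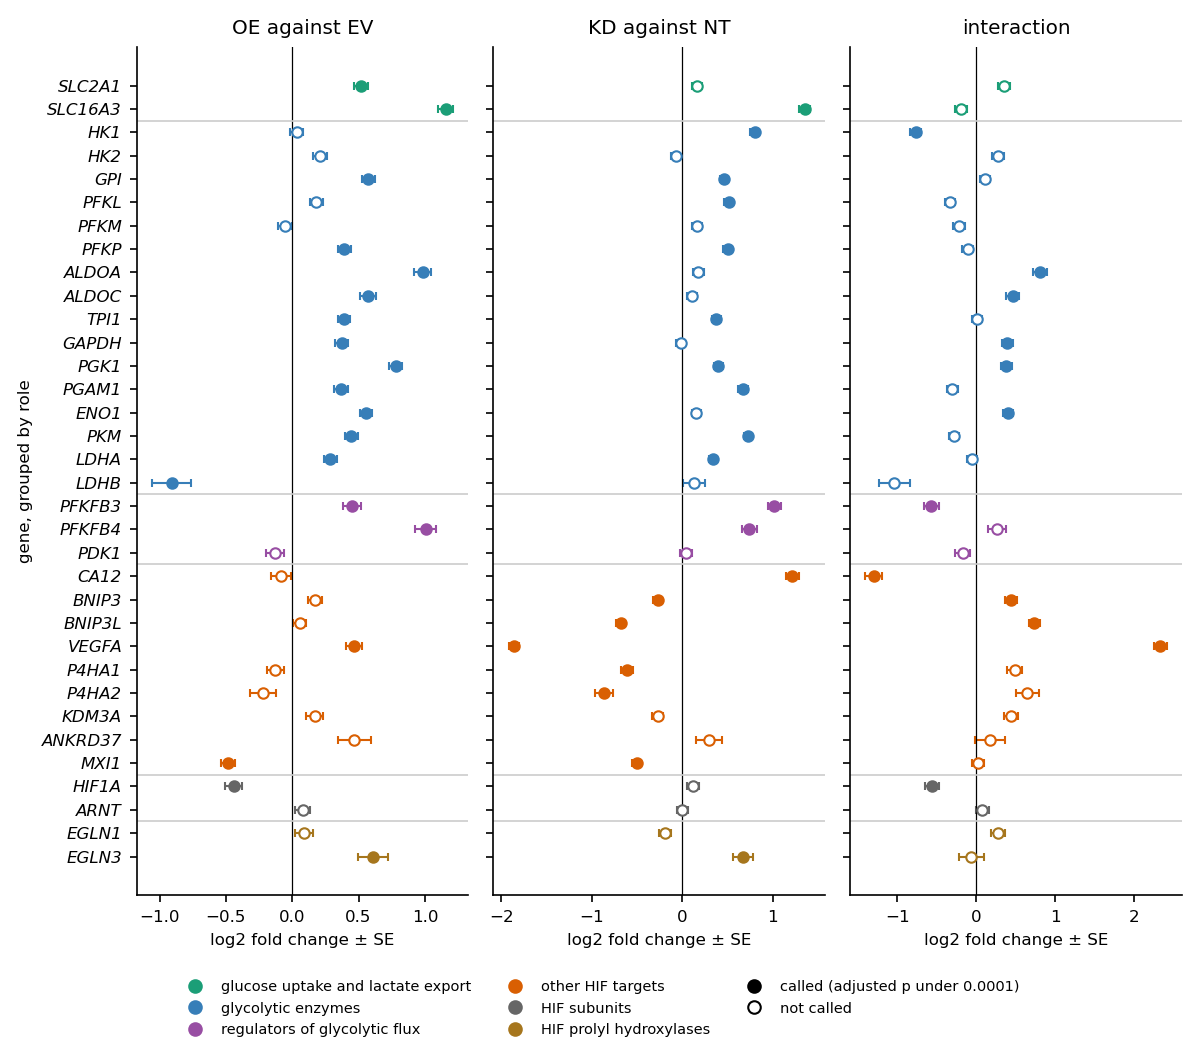
Points are log2 fold changes of the 34 tested genes with their SE, in OE against EV, KD against NT and the interaction, on separate horizontal scales, and filled points passed an adjusted p of 0.0001 (edgeR quasi-likelihood test, Benjamini-Hochberg). Glycolytic enzymes lie mostly to the right in both arms. Of the 9 tested other HIF targets, 6 were called lower in KD against NT and 1 in OE against EV. The shares of all tested genes called lower were 12.8% in KD against NT and 10.3% in OE against EV.

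Where a step has several isoenzymes, their shares of the summed level per kb of merged exons were computed in each sample. HK1 held 53.2% and 53.7% of the hexokinase level in NT, 68.4%, 68.2% and 66.7% in KD, 62.2% and 62.1% in EV and 59.2%, 61.4% and 57.3% in OE. PFKM held the largest share of the phosphofructokinases, 54.8% and 55.2% in NT and 45.6%, 46.3% and 44.4% in OE, and the share of PFKP was 19.7% and 18.9% in NT and 26.9%, 26.1% and 27.4% in OE. LDHB held 1.42% to 2.15% of the lactate dehydrogenase level in NT, KD and EV and 0.572%, 0.649% and 0.666% in OE. Lactate dehydrogenase RNA was thus almost wholly counted as LDHA in every line, and the OE samples had the lowest LDHB share without overlap. The LDHB share is uncertain, since 33.4% of its exon bases are shared with another gene and how such reads were counted is not stated. With the lengths of canonical transcripts the shares of HK1 were 67.4% to 79.7% and those of LDHB 0.487% to 1.84%, in the same order of the lines. On the scale of CPM per kb, GAPDH had the highest mean level of all members in every line (1033 to 1338), followed by ENO1 (242 to 364) and TPI1 (198 to 281).

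**Figure D3:**
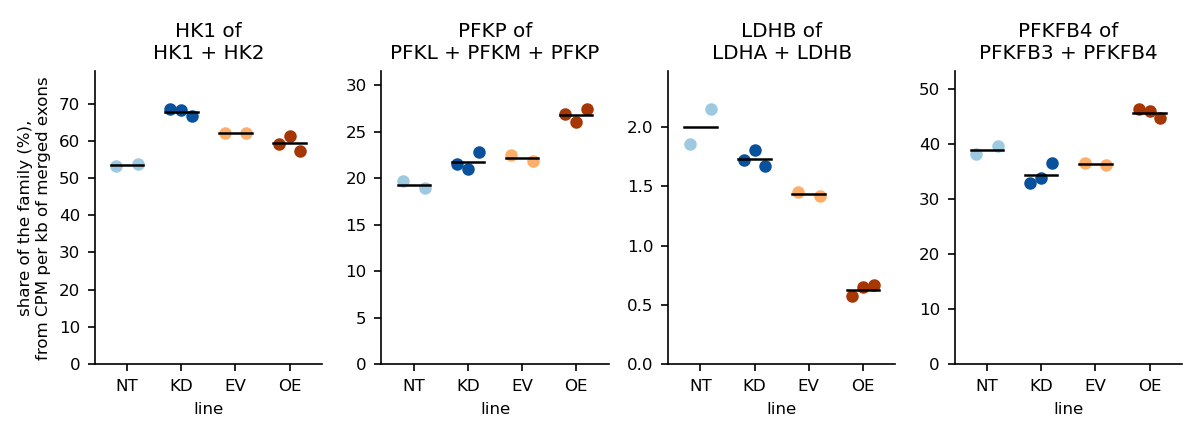
Each point is 1 sample and each line the mean of its group, as the share in percent that HK1, PFKP, LDHB or PFKFB4 took of its family's summed CPM per kb of merged exons, with each vertical axis starting at 0. The HK1 share is highest in KD (66.7% to 68.4%), and the LDHB share is lowest in OE (0.572% to 0.666%).

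The bifunctional enzymes encoded by PFKFB3 and PFKFB4 set the level of fructose 2,6-bisphosphate, the allosteric activator of phosphofructokinase. PFKFB3 had 20.6 and 19.9 CPM in NT, 41.7, 42.1 and 39.4 in KD, 26.1 and 27.9 in EV and 37.4, 34.5 and 38.6 in OE. PFKFB4 had 12.6 and 13.0 CPM in NT, 20.3, 21.4 and 22.6 in KD, 14.9 and 15.8 in EV and 32.1, 29.2 and 31.1 in OE. The highest line was KD for PFKFB3 and OE for PFKFB4, in each case without overlap. PFKFB3 rose 2.03-fold in KD against NT (1.02 ± 0.071, adjusted p = 1.04e-11) and 1.37-fold in OE against EV (0.45 ± 0.069, adjusted p = 7.1e-06). PFKFB4 rose 2.01-fold in OE against EV (1.00 ± 0.079, adjusted p = 3.5e-10) and 1.67-fold in KD against NT (0.74 ± 0.082, adjusted p = 3.62e-08). PFKFB4 held 46.2%, 45.9% and 44.6% of the pair's level per kb in OE and 32.8% to 39.6% in the other lines. The OE against EV call of PFKFB3 was lost without either EV sample (adjusted p = 0.000137 to 0.000686) and on library sizes only (0.00027). PDK1, the kinase that shuts pyruvate dehydrogenase and so keeps pyruvate out of the mitochondria, ranged from 64.4 to 80.0 CPM, overlapped between all lines and was not called (-0.13 ± 0.068 in OE against EV, 0.04 ± 0.068 in KD against NT).

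Of the 11 other HIF targets, 9 were tested. In KD against NT 6 of them fell and 1 rose, at a median of -0.51 on the log2 scale. There 12.8% of all tested genes were called lower and 16.4% higher. In OE against EV 1 rose and 1 fell, with a median of 0.05, where 11.6% of all tested genes were called higher and 10.3% lower. The median over all tested genes was -0.02 in each arm. VEGFA (chromosome 6, 43770184 to 43786487, plus strand), the main angiogenic growth factor, had 429.5 and 394 CPM in NT, 104, 116 and 120.1 in KD, 352 and 348 in EV and 507, 455 and 488 in OE. The KD samples lay far below all others and the OE samples above them. VEGFA was 3.64-fold lower in KD than in NT (-1.86 ± 0.058, adjusted p = 5.62e-18) and 1.38-fold higher in OE than in EV (0.47 ± 0.057, adjusted p = 3.61e-07). No other member fell as far in KD against NT. The prolyl 4-hydroxylases P4HA1 and P4HA2 modify collagen. P4HA1 had 96.1 and 99.2 CPM in NT, 61.3, 63.5 and 66.6 in KD, 79.0 and 88.3 in EV and 77.2, 68.4 and 83.9 in OE. P4HA2 had 17.1 and 16.6 CPM in NT, 8.27, 9.31 and 9.98 in KD, 14.4 and 17.7 in EV and 14.0, 13.0 and 14.3 in OE. For both genes KD was the lowest line without overlap. P4HA1 fell in KD against NT by 0.61 ± 0.066 on the log2 scale (adjusted p = 2.7e-08) and P4HA2 by 0.87 ± 0.10 (adjusted p = 7.49e-08), and neither was called in OE against EV (-0.13 ± 0.067 and -0.22 ± 0.098).

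BNIP3L and BNIP3 encode receptors on the outer mitochondrial membrane that direct mitochondria to mitophagy. BNIP3L had 216 and 203 CPM in NT, 129.4, 128 and 135.7 in KD, 166 and 169 in EV and 174, 164 and 183 in OE. BNIP3 had 199 and 192 CPM in NT, 163, 159 and 164 in KD, 203 and 201 in EV and 226, 211 and 244 in OE. KD was again the lowest line for both, while NT was the highest for BNIP3L and OE for BNIP3. BNIP3L was 1.60-fold lower in KD than in NT (-0.68 ± 0.050, adjusted p = 3.76e-11) and BNIP3 1.21-fold lower (-0.27 ± 0.052, adjusted p = 8.38e-05). The call of BNIP3 was lost without NT 1, NT 2, KD 1, KD 3, EV 1, EV 2 or OE 1 (adjusted p = 0.000173 to 0.00465), with DESeq2 size factors (0.000134) and on library sizes only (0.000921), and neither gene was called in OE against EV. MXI1, an antagonist of MYC, had 67.2 and 67.5 CPM in NT, 46.1, 49.0 and 47.3 in KD, 61.4 and 64.1 in EV and 46.3, 43.6 and 44.6 in OE. Both modified lines lay below both controls and overlapped with each other, and MXI1 fell in OE against EV (-0.48 ± 0.055, adjusted p = 1.18e-07) and in KD against NT (-0.51 ± 0.054, adjusted p = 2.24e-08). CA12 (chromosome 15, 63321378 to 63381846, minus strand), a membrane carbonic anhydrase that also responds to oestrogen receptor in breast cells, had 18.7 and 18.5 CPM in NT, 41.9, 44.1 and 43.6 in KD, 19.6 and 20.4 in EV and 19.5, 17.4 and 19.6 in OE. It went the other way from the 6 targets that fell, with KD alone high, and rose 2.32-fold in KD against NT (adjusted p = 4.99e-13) with -0.08 ± 0.075 in OE against EV (adjusted p = 0.38). KDM3A, a histone demethylase, and ANKRD37, an ankyrin repeat protein, were not called in either arm (KDM3A -0.27 ± 0.064 and ANKRD37 0.29 ± 0.14 in KD against NT).

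HIF1A (chromosome 14, 61695513 to 61748259, plus strand) had 122 and 131 CPM in NT, 141, 125 and 146 in KD, 115 and 116 in EV and 87.6, 77.8 and 89.6 in OE. The OE samples stood below all others, and HIF1A fell in OE against EV (-0.44 ± 0.064, adjusted p = 3.7e-06), a call lost without EV 1 or EV 2 (adjusted p = 0.000234 to 0.000254), while its value in KD against NT was 0.12 ± 0.063 (adjusted p = 0.108). The HIF1A transcript was thus lowest in the line in which most glycolytic enzymes had their highest mean. A link between the 2 was not tested. ARNT, its partner subunit, had 70.2 and 64.5 CPM in NT, 64.8, 71.9 and 65.7 in KD, 70.2 and 74.6 in EV and 74.5, 78.3 and 76.5 in OE, with no call in either arm and overlap between each modified line and its control. EGLN3, a prolyl hydroxylase that is itself induced by HIF, had 9.70 and 9.33 CPM in NT, 15.7, 15.98 and 13.9 in KD, 8.50 and 8.64 in EV and 15.0, 11.2 and 13.0 in OE. Both modified lines lay above both controls, and EGLN3 rose 1.53-fold in OE against EV (adjusted p = 8.23e-05) and 1.59-fold in KD against NT (adjusted p = 1.05e-05). Its calls were fragile, since the first was lost without NT 1, NT 2, KD 1, EV 1, EV 2, OE 1 or OE 3 (adjusted p = 0.000109 to 0.00203), on library sizes only (0.00119), with a filter of 10 counts in each sample (0.000159) and with limma-voom (0.000214), and the second without either NT sample (0.000348 to 0.000617). EGLN1, the main oxygen sensor among the hydroxylases, ranged from 40.7 to 58.5 CPM and was not called, and 55.8% of its exon bases are shared with another gene on the same strand.

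The lists were compared in each sample by the median over their genes of centred log2 CPM. Centring subtracted the average of the gene's line means, so that each line had equal weight. For the glycolytic enzymes this median was -0.28 and -0.29 in NT, 0.11, 0.12 and 0.09 in KD, -0.10 and -0.14 in EV and 0.24, 0.28 and 0.23 in OE. For the other HIF targets it was 0.28 and 0.28 in NT, -0.26, -0.30 and -0.25 in KD, 0.06 and 0.07 in EV and 0.05, -0.03 and 0.12 in OE. The lists therefore crossed over in the knockdown arm, where the enzymes were higher and the other targets lower in every KD sample than in every NT sample. In the over-expression arm the enzymes were higher in every OE sample than in every EV sample, while the other targets overlapped between OE and EV. Over all tested genes the same median stayed within -0.007 and 0.018 in all samples. The difference between the lists was not tested, since their members were chosen with results known.

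**Figure D4:**
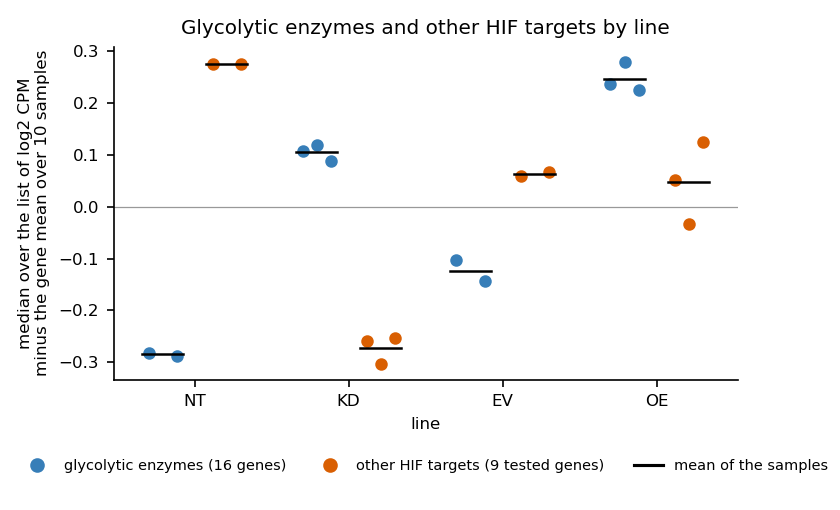
Points are samples, placed by the median over 16 glycolytic enzymes or 9 tested other HIF targets of centred log2 CPM. Centring subtracted the average of each gene's line means, which the axis labels the gene mean over 10 samples. Black bars are means of the samples of a line. In KD the enzymes lie above 0 (0.09 to 0.12) and the other targets below it (-0.30 to -0.25), and in NT the order is the opposite.

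The interaction asks whether a gene's change differed between the arms. Of the 34 tested members 8 were called higher and 4 lower, where 6.94% of all tested genes were called higher and 8.98% lower, and without TMM factors, on library sizes only, they numbered 3 and 8, where the shares of all tested genes had themselves moved to 4.02% higher and 12.3% lower, with the calls of ALDOC, GAPDH, PGK1, ENO1 and BNIP3 lost (adjusted p = 0.00023 to 0.00347). VEGFA had the largest value of the members (2.33 ± 0.082, adjusted p = 1.43e-16), followed among the higher calls by ALDOA (0.80 ± 0.090, adjusted p = 1.11e-07) and BNIP3L (0.73 ± 0.072, adjusted p = 1.39e-08). The other higher calls were ALDOC, GAPDH, PGK1, ENO1 and BNIP3, at log2 values of 0.38 to 0.46. The lower calls were CA12 (-1.30 ± 0.10, adjusted p = 4.14e-10), HK1 (-0.77 ± 0.067, adjusted p = 1.68e-09), PFKFB3 (-0.57 ± 0.099, adjusted p = 4.69e-05) and HIF1A (-0.56 ± 0.090, adjusted p = 1.79e-05). Among the glycolytic enzymes 5 were called higher and 1 lower with a median of -0.02, and among the other HIF targets 3 higher and 1 lower with a median of 0.44. Genes such as PKM (-0.28 ± 0.066), PFKL (-0.33 ± 0.068) and LDHB (-1.04 ± 0.19, adjusted p = 0.000108) were not called, although LDHB missed the limit narrowly. The calls of VEGFA, ALDOA, BNIP3L, CA12 and HK1 held in each fit that left out 1 sample. The other 7 were each lost without NT 1 or EV 2, all but HIF1A also without OE 1 or NT 2, and ALDOC, GAPDH, PFKFB3, BNIP3 and HIF1A also without EV 1, and some of them without KD 1, KD 3, OE 2 or OE 3. Their highest adjusted p in these fits was 0.00204 for ALDOC, 0.00158 for GAPDH, 0.00102 for PFKFB3, 0.000596 for BNIP3, 0.00189 for PGK1, 0.00106 for ENO1 and 0.000502 for HIF1A. The number called higher was 3 without NT 1, NT 2, EV 2 or OE 1 and 5 without EV 1 or OE 3, and the number called lower was 2 without NT 1, KD 1, EV 1 or EV 2, and in the fits that left out 1 sample 4.18% to 9.32% of all tested genes were called higher and 5.72% to 12.2% lower.

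The control lines also differed from each other, which enters the interaction. In EV against NT 4 members rose and 1 fell, where 5.25% of all tested genes were called higher and 2.91% lower. The higher ones were SLC16A3 (0.86 ± 0.064, adjusted p = 2.63e-10), HK1 (0.65 ± 0.052, adjusted p = 1e-09), PFKP (0.41 ± 0.053, adjusted p = 2.39e-06) and SLC2A1 (0.36 ± 0.060, adjusted p = 5.81e-05), and the lower one was BNIP3L (-0.32 ± 0.056, adjusted p = 7.42e-05). SLC16A3 was 1.82-fold and HK1 1.56-fold higher in EV than in NT, so that EV lay between NT and KD in both genes. Without NT 1, NT 2 or EV 1 the calls of SLC2A1, PFKP and BNIP3L were lost, and those of SLC2A1 and BNIP3L also without KD 1, EV 2 or OE 1 and SLC2A1 without OE 3, with adjusted p of up to 0.00311 for SLC2A1, 0.000501 for PFKP and 0.00513 for BNIP3L, that of BNIP3L was lost on library sizes only (0.000305), and without KD 2 the number called higher was 7, where 8.49% of all tested genes were. The drug, the vector and the line cannot be told apart in this difference.

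Some genes lie in regions where many genes moved together, so each member was set beside the tested genes whose start lies within 5 Mb of its own. In OE against EV the median log2 fold change of these neighbours was -0.63 for MXI1 (27 neighbours, chromosome 10), beside -0.48 ± 0.055 for the gene itself. MXI1 was thus no lower than its region. For BNIP3, also on chromosome 10, the 26 neighbours had a median of -0.46 while BNIP3 had 0.17 ± 0.052, and its own KD against NT value of -0.27 ± 0.052 stood beside a neighbour median of 0.05. The neighbour median of LDHB in OE against EV was -0.38 over 15 genes, against -0.91 ± 0.15 for LDHB, and that of HIF1A was -0.27 over 46 genes, against -0.44 ± 0.064. LDHB and HIF1A were lower than their neighbours, which were themselves lower in OE than in EV. ALDOA lay among genes that were higher (0.39 over 99 genes), below its own 0.98 ± 0.064, and PGK1 on chromosome X rose by 0.78 ± 0.048 among 22 genes with a median of -0.39. For VEGFA on chromosome 6 the 72 neighbours had a median of 0.29 in KD against NT, opposite in sign to its own -1.86 ± 0.058. The part of regional changes in these values was not tested.

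**Figure D5:**
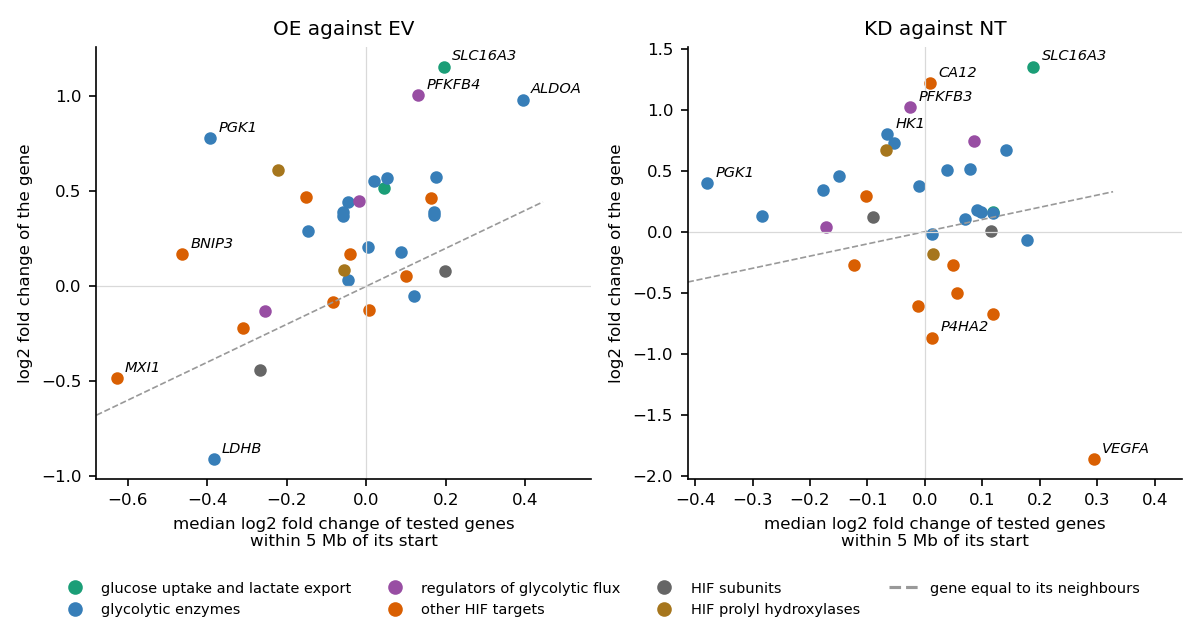
Each point is 1 of the 34 tested genes, with its log2 fold change on the vertical axis and the median log2 fold change of the tested genes within 5 Mb of its start on the horizontal axis, in OE against EV (left) and KD against NT (right), and the dashed line marks equal values. MXI1 lies above the line in OE against EV among neighbours at -0.63, and VEGFA lies far below it in KD against NT.

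Genes of the same pathways that were not among the 36 were called in both directions. Of 22 tested further glycolysis genes (of 32 listed), 4 rose and 2 fell in OE against EV and 4 rose and 3 fell in KD against NT, with medians of -0.13 and 0.08. The shares over all tested genes were 11.6% higher and 10.3% lower for OE against EV and 16.4% and 12.8% for KD against NT, so the counts of this list are near the background, in particular in KD against NT. ENO2, the neuronal enolase, had 26.1 and 24.9 CPM in NT, 13.3, 17.2 and 13.8 in KD, 17.8 and 20.2 in EV and 42.0, 37.8 and 44.3 in OE. It fell in KD against NT (-0.79 ± 0.095, adjusted p = 1.52e-07) and rose in OE against EV (1.12 ± 0.093, adjusted p = 8.37e-10), with an interaction of 1.91 ± 0.13. SLC16A1, which encodes MCT1 and is named here after its values were seen, had 322 and 309.7 CPM in NT, 147, 146 and 149.9 in KD, 211 and 237 in EV and 185, 178 and 178 in OE. It fell in both arms, 2.14-fold in KD against NT (adjusted p = 2.98e-15) and 1.24-fold in OE against EV (adjusted p = 1.26e-05), the opposite direction to SLC16A3. Of 23 tested further HIF targets (of 27 listed), 8 rose and 2 fell in OE against EV and 8 rose and 5 fell in KD against NT, with medians of 0.18 and 0.05. Over all tested genes 11.6% rose and 10.3% fell in OE against EV, and 16.4% rose and 12.8% fell in KD against NT. Higher calls were thus more frequent in this list than over all tested genes in both arms, which was not tested. This second list of HIF targets thus did not share the low median of the first in KD. STC2, a secreted glycoprotein, had 301 and 285 CPM in NT, 96.9, 102 and 99.8 in KD, 212 and 214 in EV and 264, 282 and 270.1 in OE. Like VEGFA it was lowest in KD (-1.55 ± 0.047 in KD against NT, adjusted p = 4.54e-18) and rose in OE against EV (0.35 ± 0.047, adjusted p = 1.23e-06). HMOX1, the haem oxygenase that also answers oxidative stress, had 14.0 and 13.6 CPM in NT, 24.6, 18.7 and 26.6 in KD, 12.8 and 13.7 in EV and 109.5, 83.0 and 107 in OE, and rose 7.56-fold in OE against EV (adjusted p = 3.32e-15) and 1.69-fold in KD against NT (adjusted p = 1.66e-05).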

How the data were processed

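Poly(A) RNA of 10 cell samples was sequenced in pairs of 150 bp. Per the paper's methods the authors trimmed adapters with BBDuk, discarded reads under 50 bp and aligned and quantified them with STAR 2.6.0a on the Ensembl human transcriptome (hg38, release 96). As deposited, the values are whole-number counts per gene symbol, not normalized, and 0 sample columns were left out. Strand and the treatment of reads shared by genes are not given in the sources used here, so gene and antisense reads cannot be told apart. Depth was 23555205 to 28615770 counts per sample, and 3 counts correspond to 0.0995 to 0.136 CPM.

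Counts were filtered with filterByExpr, brought to 1 scale by TMM, and edgeR 4.0.16 (R 4.3.3) gave quasi-likelihood tests (glmQLFit, 1 mean per line over all 10 samples), with Benjamini-Hochberg adjustment over 17230 genes. The SE was derived from the test, as the absolute log2 fold change divided by the square root of its F statistic. It is therefore no separate measure of spread. A call needed an adjusted p under 0.0001, the limit used in the study. Groups came from the sample labels. The members and lists were chosen with earlier results of these data known. All 36 members are given by role, with values in every sample for those called with an absolute log2 fold change of 0.5 or more and for HIF1A and ARNT, and of further genes CPT1A and the 3 with the largest called interaction at an average log2 CPM of at least 1. Per-sample values of other members, and SLC16A1, were added after the values were seen. Positions and exon lengths are from GENCODE v44 on GRCh38, which placed 13992 tested genes (81.2%), and promoters are from RefSeq on GRCh38.p14. Alternatives were DESeq2 1.42.0 size factors and Wald test, library size only, a filter of 10 counts in each sample or none, limma-voom (limma 3.58.1), the replicate block, added pseudogene counts, other call limits and leaving out each sample. On data simulated for OE against EV over 16842 genes, edgeR recovered 12.2% of changes of 0.3, 56% of 0.6, 73.5% of 1 and 88% of 1.5 on the log2 scale, with 0 false calls. Only 49 or 50 genes were changed at each size, whereas 2004 genes were called higher and 1774 lower in the data. The adjusted p limit is stricter when few genes change, so these rates do not carry over to the data.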

Additional observations from a re-analysis of the deposited data

How the results depend on the processing

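No called log2 fold change of a member changed sign under any alternative (57 called values, 2448 alternative values in all). Scaling by library size alone moved the median gene by -0.13 in the interaction and by -0.10 in OE against EV. It gave 3 higher and 8 lower interaction calls in place of 8 and 4, 0 lower calls in EV against NT in place of 1, and 13 higher calls in OE against EV, where 4.02% and 12.3%, 2%, and 7.08% of all tested genes were called. Under it the uncalled values of HK1 (-0.065), BNIP3L (-0.043), ARNT (-0.021) and EGLN1 (-0.01) in OE against EV, of GAPDH in KD against NT (0.018) and of GPI (-0.02), TPI1 (-0.12), MXI1 (-0.11) and ARNT (-0.058) in the interaction turned. With at least 10 counts in every sample ARNT had -0.015 in KD against NT. The DESeq2 Wald test called 7 members higher in EV against NT, where 7.56% of all tested genes were.

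At an adjusted p of 0.05 the interaction had 14 higher and 10 lower calls, where 20.3% and 24% of all tested genes were called, and EV against NT 11 and 4, where 18.5% and 15.5% were. With a log2 fold change of at least 0.5 the higher and lower calls were 9 and 1 in OE against EV, 3 higher in the interaction and 2 and 0 in EV against NT, where 5.64% and 6.92%, 5.94%, and 2.77% and 1.96% of all tested genes were called. Fits without 1 KD or OE sample keep at least 2 samples in each group. In OE against EV they gave 15 to 17 higher and 2 to 3 lower calls. There 9.33% to 15.1% of all tested genes were called higher and 7.46% to 13.8% lower. KD against NT had 14 and 5 to 6, where 14% to 17.5% and 10.7% to 13.6% of all were called. The interaction had 3 to 10 and 2 to 6, where 5.65% to 9.32% and 7.26% to 12.2% were. EV against NT had 3 to 7 and 0 to 1, where 4.29% to 8.49% and 2.38% to 5.7% were. Some uncalled values turned when any 1 of the 10 samples was left out. In the interaction they ranged from -0.016 to 0.055 (TPI1), -0.002 to 0.051 (MXI1) and -0.174 to 0.033 (EGLN3). In KD against NT the ranges were -0.052 to 0.002 (GAPDH), -0.028 to 0.09 (PDK1) and -0.055 to 0.066 (ARNT). Those in EV against NT were -0.017 to 0.074 (ENO1), -0.012 to 0.156 (PDK1) and -0.219 to 0.066 (P4HA2). The cause was not tested in any of these.

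Same-numbered samples of different lines had a mean residual correlation of -0.003 over 13 pairs, so the numbers do not pair the samples. With the replicate block, 17 higher and 3 lower members were called in OE against EV, where 13% and 11.7% of all tested genes were. KD against NT had 14 and 6, where the shares were 17% and 13.3%. The interaction had 10 and 4, beside 7.85% and 10.2%, and EV against NT 5 and 1, beside 6.45% and 3.88%. Under this block the uncalled KD against NT values of GAPDH (0.003) and PDK1 (-0.018) turned. Groups of 2 or 3 samples and low counts, as for LDHB, CA9 and ADM, limit what could be detected.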

Other observations

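Of 7 further regulators of the HIF pathway, 6 were tested, with 1 higher and 1 lower call in OE against EV and 0 and 1 in KD against NT, where the shares over all tested genes were 11.6% higher and 10.3% lower in the first comparison and 16.4% and 12.8% in the second. ARNT2, a paralogue of ARNT, had 12.6 and 9.69 CPM in NT, 4.17, 5.29 and 5.74 in KD, 9.83 and 9.57 in EV and 5.14, 4.98 and 3.71 in OE. It was lower in both modified lines than in both controls without overlap (-1.08 ± 0.15 in OE against EV, edgeR quasi-likelihood test, adjusted p = 1.76e-06, and -1.13 ± 0.14 in KD against NT, adjusted p = 2.24e-07). CITED2, which competes with HIF for its coactivator, rose in OE against EV (0.67 ± 0.065, adjusted p = 1.06e-08) and had 0.28 ± 0.066 in KD against NT (adjusted p = 0.000707). These genes were named after their values were seen.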
